A study of Mus musculus with 21 samples.

Results

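Uteri of 6 aged mice were compared with those of 7 mice of 5 weeks, all wild type C57BL/6J, an inbred laboratory strain, after priming with PMSG (pregnant mare serum gonadotropin, a hormone that makes ovarian follicles grow and secrete estrogen). These are 13 of the 20 libraries with values; the other 7 are from mice of 8 weeks. Each library was assigned by the name heading its value column, and all 12791 listed genes were described. The study asked which uterine genes change as the lining ages, and measured RNA of whole tissue by sequencing.

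Young and aged mice alike got 5 or 7.5 units of PMSG into the abdomen and were dissected after 48 hours. The sources used here do not give the dose of each animal, its cycle stage or its hormone levels, and every sample of the series was primed. The libraries fall into 2 sets. Replicates 1 and 2 of each age form the earlier set, with aged mice of 60 to 75 weeks. For 5w replicates 3 to 7 and aged replicates 4 to 7, the later set, the aged mice were 79 weeks old. RNA was purified with either of 2 kits and sequenced on either of 2 instruments, with no assignment given, so set, kit, instrument and the age of the aged mice cannot be told apart. The set was a term of the fit, and the words "by set" give a log2 change within the earlier set and then within the later set. The genes given by 1 log2 change alone had the same sign in both sets. Labels do not say more about the animals than their age, so p-values measure the spread between these samples only.

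The uterus is a layered organ of muscle, connective stroma, lining epithelium and glands, and its layers grow and regress with the ovarian steroids. Estrogen drives the epithelium of a rodent uterus into cell division and switches on secreted and cornified-envelope proteins, while progesterone shifts division to the stroma. Immune cells, lymph vessels and collagen are renewed through each cycle in young adults, and the collagen content of the uterus is known to change with age.

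Depth was 12440146 to 14448283 reads in the 4 earlier libraries and 19100690 to 26433202 reads in the 9 later ones. Values are CPM, reads per 1e+06 reads in listed genes, and all listed genes had at least 10 reads in every library. The sets parted the libraries more than age did: in a principal component analysis of the 13 libraries, component 1 held 47.2% of the variance, with scores of -81.1 to -63.2 in the earlier and -16.9 to 74.3 in the later set. Component 2 held 24.6% and ordered the ages, from -56.0 to 5.52 at 5 weeks and from 9.45 to 57.3 in aged uteri. The 2 libraries nearest each other across that gap were 5w replicate 3, at 5.52, and aged replicate 5, at 9.45. The values of 5w replicate 3 were deposited under aged replicate 7, though headed with their own name, so values without it are given beside several results. Pairs of libraries of the same group and set had a median r of 0.920 across genes, and pairs of different groups within a set 0.874. Defining genes of uterine tissue were listed in every library, among them the estrogen receptor Esr1 at 140.2 to 567 CPM.

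**Figure D1:**
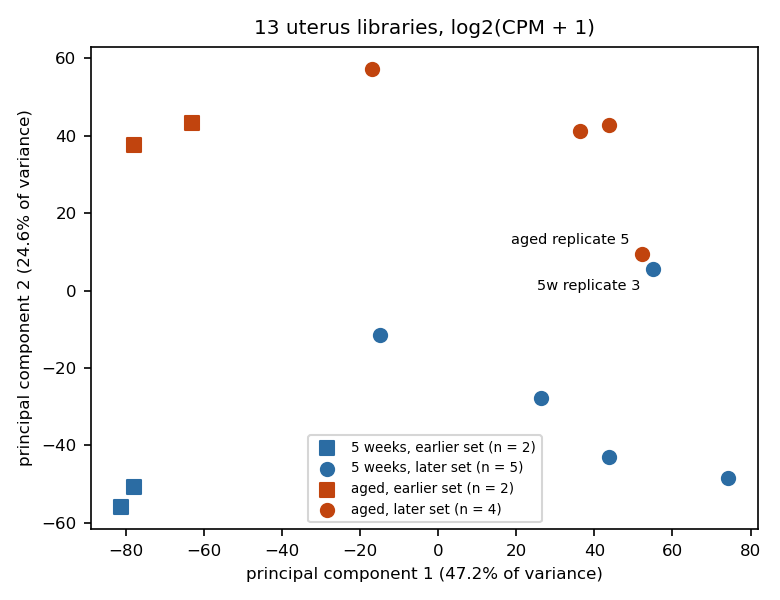
Principal component scores of the 7 libraries of 5-week uteri and the 6 of aged uteri on log2(CPM + 1), component 1 (47.2% of the variance) across and component 2 (24.6%) up, with one point per library and the earlier and later sets in different shapes. The sets part along component 1 and the ages along component 2, where 5w replicate 3 and aged replicate 5 lie next to each other.

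Levels of 2799 of the 12791 genes, 21.9%, differed between aged and 5-week uteri at an adjusted p under 0.05 in limma. The fit was made on log2(CPM + 1) of all 20 libraries, with the set as a term. RNA of 1610 genes (12.6%) was higher and of 1189 (9.30%) lower in aged uteri, and genes that passed this test are said below to have risen or fallen. A change of at least 2-fold was passed by 623 genes upward (4.87%) and 418 downward (3.27%), and one of at least 4-fold by 72 upward and 130 downward. The downward side was the steeper: 50 of those 130 genes belong to the lists of DNA replication and mitosis. The median log2 change of all genes was 0.09. Of the 2799 genes, 2795 had the same sign in both sets, and 811 had aged values apart from the 5-week values within both sets. Without 5w replicate 3, the 5-week library nearest the aged ones on component 2, the count was 3081. Of the 104 genes that passed and are described here with values, 0 lost the call without it. In the later set alone 45 of the 104 lost the call, and 33 did there without 5w replicate 3. The number was 13 in the earlier set alone, 13 with no set term and 5 with columns attached by file. Fitted on the aged and 5-week libraries alone, 2223 genes passed, 1196 higher and 1027 lower in aged uteri. In that fit 1 of the 104 genes, Ovgp1, lost the call. Log2 changes of aged against 5-week uteri are given below with their SE.

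Genes of cell division made up the steepest fall. The mitosis list fell almost as a whole: 47 of its 48 measured members were lower in aged uteri, against 9.30% of all genes, with a median log2 change of -3.29 (all genes, 0.09). The medians were -3.23 in the earlier set and -3.26 in the later set. Pttg1, the separase inhibitor securin, was the 1 member that did not pass. In 46 members the aged values lay below the 5-week values within both sets, against 3.82% of all genes. The summed level of the list was 1272 to 8319 CPM at 5 weeks, with a median of 4214, and 255 to 1438 CPM in aged uteri, with a median of 402.

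Stretches of 120 bases before the start of 4 of these genes are shown because mitotic genes are known for a promoter arrangement of paired CCAAT boxes, bound by the factor NF-Y, near a cell-cycle homology region with the core TTTGAA. They are written 5′ to 3′ on the strand of the gene, from RefSeq on GRCm38.p6, with each CCAAT and each TTTGAA, read on either strand, in capitals. The stretches are Ube2c at chr2:164769809-164769928 on the plus strand, and Cdk1 at chr10:69352913-69353032, Ccnb2 at chr9:70421555-70421674 and Cdc20 at chr4:118437344-118437463 on the minus strand. Gene coordinates given below are from GENCODE, and its starts of Ube2c and Cdk1 lie inside these stretches.
Ube2c: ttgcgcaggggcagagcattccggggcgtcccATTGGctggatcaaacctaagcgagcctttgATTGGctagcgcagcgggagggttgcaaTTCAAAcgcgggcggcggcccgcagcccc
Cdk1: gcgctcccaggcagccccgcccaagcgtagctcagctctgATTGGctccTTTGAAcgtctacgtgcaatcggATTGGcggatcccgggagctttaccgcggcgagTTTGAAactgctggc
Ccnb2: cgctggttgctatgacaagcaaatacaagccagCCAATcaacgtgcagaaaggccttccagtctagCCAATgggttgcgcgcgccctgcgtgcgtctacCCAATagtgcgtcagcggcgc
Cdc20: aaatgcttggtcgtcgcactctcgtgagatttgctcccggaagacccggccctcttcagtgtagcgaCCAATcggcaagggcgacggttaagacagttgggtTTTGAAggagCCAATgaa

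In Ube2c, CCAAT boxes start 88 and 57 bases before the RefSeq transcript start and TTTGAA 29 bases before it. Cdk1 has boxes at 80 and 48 bases and TTTGAA at 71 and 15 bases. Ccnb2 has 3 boxes, at 87, 54 and 21 bases, and no TTTGAA in the stretch shown. Cdc20 has boxes at 53 and 8 bases and TTTGAA at 18 bases. Windows of 300 bases, from 250 before to 50 after the start, were searched on both strands in 10017 listed genes with an entry. TTTGAA was in the windows of 29 of 40 mitosis genes (72.5%) against 14.3% of all, and at least 2 CCAAT boxes in 21 (52.5%) against 16.4%. Both together were in 17 (42.5%), against 2.27% of all. The DNA replication list had TTTGAA in 4 of 31 windows (12.9%), at least 2 CCAAT boxes in 12 (38.7%) and both in 2 (6.45%). These counts describe letters in windows, and no binding was measured.

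Ube2c, the ubiquitin carrier that works with the anaphase-promoting complex (chromosome 2, 164769898 to 164778822, GRCm38), was 33.4 to 342 CPM (median 102) in 5-week and 1.72 to 31.4 CPM (median 7.69) in aged uteri. All 6 aged libraries were below every 5-week library, and the log2 change was -3.95 ± 0.36, adjusted p = 7.97e-06, or -3.75 in the earlier and -4.05 in the later set. Of its exon bases, 22.8% are shared with Tnnc2, and the library kit keeps no strand, so reads there cannot be assigned to either. Cdk1, the kinase that triggers mitosis (chromosome 10, 69335146 to 69352938, GRCm38), was 29.8 to 224 CPM (median 143) in 5-week and 2.49 to 36.0 CPM (median 6.23) in aged uteri. The aged library with the most, replicate 2, lay above 5w replicate 5 and below the other 5-week libraries, and the log2 change was -3.76 ± 0.42, adjusted p = 1.55e-05, by set -3.37 and -3.94. Its partner Ccnb1, cyclin B, was 21.9 to 147 CPM (median 64.4) in 5-week and 0.736 to 10.1 CPM (median 2.22) in aged uteri, with no overlap and a log2 change of -4.13 ± 0.46, adjusted p = 1.55e-05, by set -3.76 and -4.30. Ccnb2, the other B-type cyclin, fell by 3.68, and the S-phase and G2 cyclin Ccna2, which shares 12.5% of its exon bases with Exosc9, by 3.78, on the log2 scale, again with no overlap.

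Plk1, the kinase that matures the spindle poles, had a median of 50.1 CPM in young uteri and 3.33 CPM in aged ones (log2 change -3.30 ± 0.33, adjusted p = 7.97e-06, by set -3.81 and -3.06). Tpx2, which builds spindle microtubules, had medians of 132 and 7.75 CPM (-3.67 ± 0.43, adjusted p = 1.64e-05, by set -3.72 and -3.64). Birc5, the chromosomal passenger survivin, had 96.3 and 5.73 CPM (-3.60 ± 0.42, adjusted p = 1.64e-05, by set -3.33 and -3.73). Hmmr, a spindle protein and hyaluronan receptor, fell by 3.72, Cdca3, a trigger of mitotic entry, by 3.61, and Cdc20, the activator of the anaphase-promoting complex, by 3.54 on the log2 scale. Mki67, the marker of cycling cells, was 63.5 to 404 CPM (median 226) in 5-week and 3.89 to 79.8 CPM (median 16.7) in aged uteri, and 5 of 6 aged libraries were below every 5-week library (log2 change -3.46 ± 0.45, adjusted p = 3.65e-05, by set -3.17 and -3.60). In these whole tissues, fewer cells of a kind and less RNA per cell cannot be told apart, and this holds for every gene below.

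**Figure D2:**
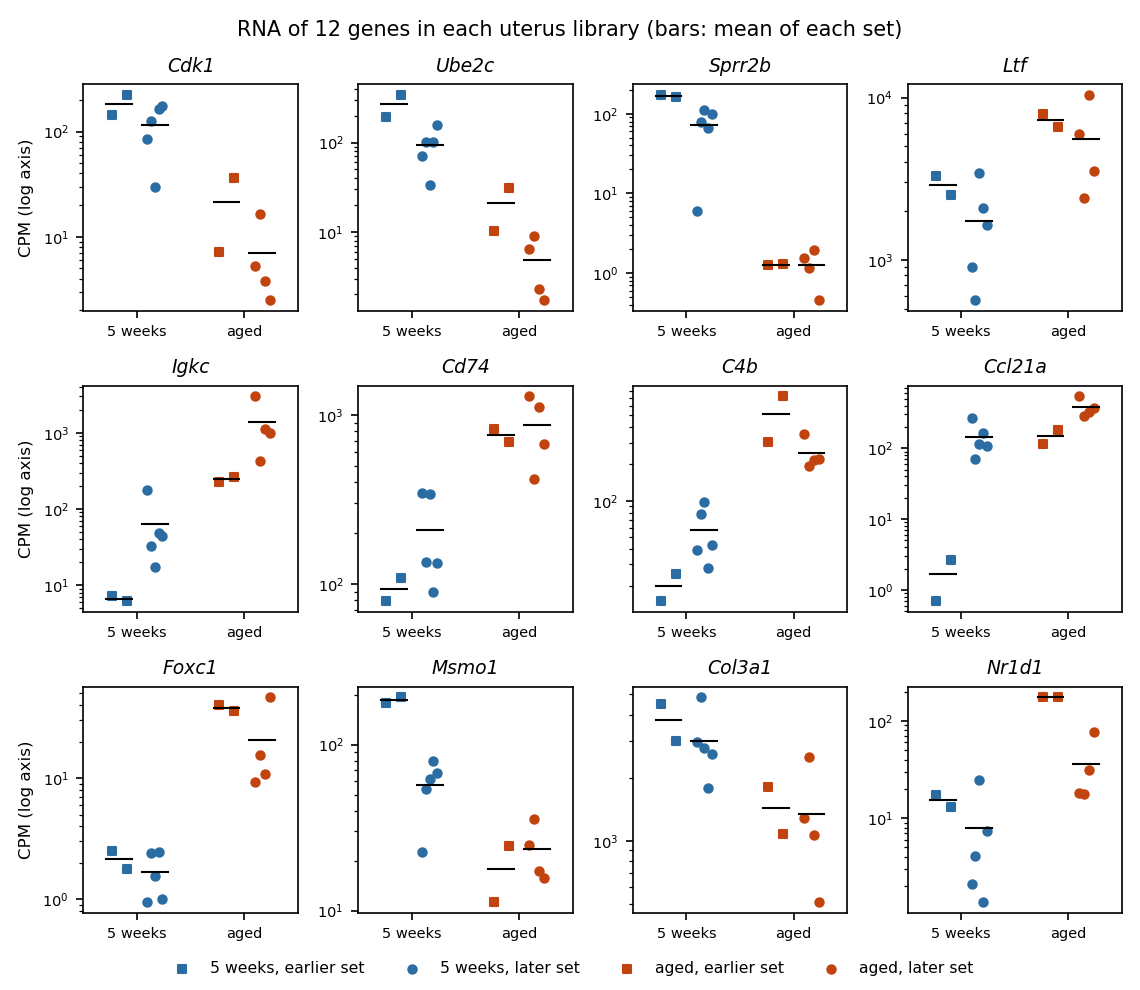
CPM of 12 genes in each of the 13 libraries on a log axis, one point per library, by age group and set, with bars at the mean of each age and set. Cdk1, Ube2c and Sprr2b sit lower in the aged libraries of both sets, Igkc, Cd74, C4b and Foxc1 higher, and Ccl21a differs between the ages more in the earlier set than in the later one.

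Most DNA replication genes fell too. Of 36 members, 30 were lower, against 9.30% of all genes, and 0 higher, with a median log2 change of -1.30. The number lower was 19 in the later set alone. The aged values lay below the 5-week values within both sets for 24 of the 36, against 3.82% of all genes. Rrm2, the subunit of ribonucleotide reductase made in S phase, was 32.5 to 129 CPM (median 75.6) in 5-week and 1.31 to 22.9 CPM (median 7.04) in aged uteri, with no overlap (log2 change -3.04 ± 0.49, adjusted p = 0.000314, by set -2.38 and -3.31). Pclaf, which rides on the replication clamp, fell by 3.46, Tk1, the salvage kinase for thymidine, by 2.74, and Mcm10, which loads polymerase, by 2.58 on the log2 scale. Pcna, the replication clamp itself, had the smallest change of these: it was 73.6 to 275 CPM (median 261) in 5-week and 31.8 to 126 CPM (median 93.8) in aged uteri, with 2 aged libraries below every 5-week library and a log2 change of -1.05 ± 0.29, adjusted p = 0.0135, by set -0.71 and -1.17. Pcna did not pass when columns were attached by file (adjusted p = 0.0963).

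Among chromatin genes of dividing cells, 10 of 17 measured members were lower, against 9.30% of all genes, and 0 higher (median log2 change -0.57), and 5 were lower with columns attached by file. Hmgb2, a DNA-bending protein, fell by 2.08, the nuclear envelope lamin Lmnb1 by 1.77, the polycomb methyltransferase Ezh2 by 1.14, and the histone chaperone Asf1b by 2.56 on the log2 scale. Of cell cycle inhibitors and senescence genes, 3 of 20 measured members were higher (Igfbp3, Cdkn1c and Cdkn2b), 15.0% against 12.6% of all genes, and 6 lower, 30.0% against 9.30%. The lowest log2 change in this list was -2.08, the value given above for Hmgb2, and lists can share genes. The 6 lower members are not named here, so the count gives no direction for senescence. Cdkn1c, the imprinted inhibitor p57, was 7.89 to 89.7 CPM (median 23.7) in 5-week and 37.9 to 104 CPM (median 83.1) in aged uteri, with 2 aged libraries above every 5-week library (log2 change 1.70 ± 0.43, adjusted p = 0.00869; 3.34 in the earlier and 0.95 in the later set); 30.7% of its exon bases are shared with Gm44732. Cdkn1a, the inhibitor p21, was 15.1 to 49.2 CPM (median 21) in 5-week and 28.6 to 38.0 CPM (median 36.7) in aged uteri. Its groups overlapped, its log2 change of 0.40 ± 0.19, adjusted p = 0.14 did not pass, and the sign differed between the sets (-0.31 in the earlier and 0.72 in the later set). Cdkn2a was not analysed here.

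Several genes that estrogen switches on in the epithelium were far lower in aged uteri, while others were higher. Of 26 measured estrogen-responsive genes, 8 were lower (Sprr2b, Sprr2g, Sprr2a3, Sprr2f, Mad2l1, Igf1, Wnt5a and Hspa5), 2 were higher (Ltf and Mapk4), and the median log2 change was -0.12. Of all genes 9.30% were lower and 12.6% higher, so the share higher was below that of all genes. Without single libraries that median ran from -0.28 to 0.01. Sprr2b, a cornified-envelope protein of the lining (chromosome 3, 92316620 to 92318085, GRCm38), had the largest fall of the genes described here: it was 6.07 to 174 CPM (median 98.9) in 5-week and 0.453 to 1.94 CPM (median 1.27) in aged uteri. All aged libraries were below every 5-week library, and the log2 change was -5.10 ± 0.69, adjusted p = 5.13e-05 (-6.23 in the earlier and -4.60 in the later set). The lowest 5-week value was that of 5w replicate 3, and without it the log2 change was -5.63. Sprr2g was 51.3 to 483 CPM (median 109) in 5-week and 3.25 to 13.5 CPM (median 6.62) in aged uteri, also with no overlap (log2 change -4.09 ± 0.56, adjusted p = 5.64e-05, by set -3.16 and -4.50). Sprr2f was 276 to 4373 CPM (median 1667) in 5-week and 53.9 to 791 CPM (median 129.7) in aged uteri (log2 change -3.27 ± 0.67, adjusted p = 0.00221, by set -3.83 and -3.03), and the relative Sprr1a fell by 3.66 on the log2 scale. Sprr2 genes lie side by side as near copies, so reads may be split uncertainly between them.

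Lactoferrin moved the other way. Ltf, the secreted iron-binding protein that estrogen induces in mouse uterine epithelium, was 563 to 3437 CPM (median 2079.8) in 5-week and 2406 to 10414 CPM (median 6285) in aged uteri. In 5 of 6 aged libraries it was above every 5-week library, and the log2 change was 1.63 ± 0.41, adjusted p = 0.00871 (1.34 in the earlier and 1.74 in the later set); attached by file, it did not pass (adjusted p = 0.164). Lif, the gland cytokine needed for implantation, was 2.41 to 75.8 CPM (median 22.7) in 5-week and 1.76 to 7.53 CPM (median 5.30) in aged uteri, with 1 aged library below every 5-week library and a log2 change of -2.07 ± 0.58, adjusted p = 0.0153, by set -3.25 and -1.55. Igf1, the stromal growth factor, was 192 to 428 CPM (median 289.9) in 5-week and 72.8 to 339 CPM (median 109) in aged uteri, with 5 of 6 aged libraries below every 5-week library (log2 change -1.16 ± 0.34, adjusted p = 0.0218, by set -1.66 and -0.94). It lost the call without 5w replicate 1 (adjusted p = 0.0540), aged replicate 1 (0.0554), aged replicate 6 (0.0517) or aged replicate 7 (0.0541), and when columns were attached by file (0.0605). Hsd11b2, the enzyme that inactivates glucocorticoids and guards the mineralocorticoid receptor, was 65.2 to 998 CPM (median 201) in 5-week and 13.1 to 183 CPM (median 40.7) in aged uteri (log2 change -2.53 ± 0.60, adjusted p = 0.00563, by set -2.83 and -2.38).

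The receptors for both ovarian steroids did not pass the test. Esr1, estrogen receptor alpha, was 140.2 to 459.6 CPM (median 208) in 5-week and 209 to 567 CPM (median 345) in aged uteri (log2 change 0.36 ± 0.21, adjusted p = 0.212, by set 0.37 and 0.36), with 2 aged libraries above every 5-week library. Pgr, the progesterone receptor, was 40.5 to 236 CPM (median 141) in 5-week and 69.9 to 419 CPM (median 88.4) in aged uteri (log2 change -0.06 ± 0.44, adjusted p = 0.943, by set 0.03 and -0.10), and its groups overlapped. Of 17 measured nuclear hormone receptors 2 were higher, the mineralocorticoid receptor Nr3c2 and the thyroid hormone receptor Thra, a share near the 12.6% of all genes. Nr3c2 was 0.892 to 4.61 CPM (median 1.83) in 5-week and 3.06 to 18.1 CPM (median 7.06) in aged uteri, with 5 aged libraries above every 5-week library and a log2 change of 1.5 ± 0.30, adjusted p = 0.00185, by set 2.32 and 1.10. Of 14 measured progesterone-responsive genes, 1 was higher (Sult1d1) and 0 lower, with a median log2 change of 0.02, again no more than the background.

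The 3 largest rises of all genes that passed were those of the antibody genes Igkc, Jchain and Ighm. In the plasma cell and immunoglobulin list, 8 of 13 measured members were higher (Igkc, Jchain, Ighm, Igha, Derl3, Slamf7, Tnfrsf13b and Irf4) and 0 lower, against 12.6% of all genes. Without 5w replicate 3 these were 7 and 1, and 4 were higher in the later set alone. The summed level was 508 to 984 CPM at 5 weeks, against 1066 to 7667 CPM in aged uteri, with no overlap. Igkc, the constant region of the kappa light chain (chromosome 6, 70726435 to 70726966, GRCm38), was 6.13 to 179 CPM (median 32.5) in 5-week and 229 to 3052 CPM (median 704) in aged uteri. The highest 5-week value belonged to 5w replicate 3 and the next was 49.0 CPM. All aged libraries were above all 5-week ones, and the log2 change was 4.66 ± 0.58, adjusted p = 2.79e-05 (5.01 in the earlier and 4.52 in the later set), or 5.0 without 5w replicate 3.

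Heavy chains of more than 1 class rose. Ighm, the heavy chain of IgM, was 9.21 to 47.9 CPM (median 40.7) in 5-week and 104 to 1497 CPM (median 275) in aged uteri (log2 change 3.55 ± 0.48, adjusted p = 4.88e-05, by set 3.78 and 3.43), with no overlap. Igha, the heavy chain of IgA, the antibody of mucous surfaces, was 11.3 to 265 CPM (median 51.4) in 5-week and 46.2 to 2009 CPM (median 716) in aged uteri. Aged replicates 1 and 5, at 64.5 and 46.2 CPM, lay among the 5-week libraries, while the other 4 had 256 CPM or more (log2 change 3.20 ± 0.70, adjusted p = 0.00321, by set 3.33 and 3.18). Jchain, which joins IgA and IgM into polymers, rose by 3.82, and Derl3, which clears misfolded protein from the endoplasmic reticulum of secreting cells, by 1.42 on the log2 scale. Reads of antibody constant regions can be shared between near copies. Pigr, the epithelial receptor that carries IgA and IgM into the lumen, was 45.4 to 141 CPM (median 87.3) in 5-week and 212 to 2597 CPM (median 417) in aged uteri, with no overlap and a log2 change of 2.57 ± 0.45, adjusted p = 0.000626, by set 3.00 and 2.34.

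Of 16 B cell genes only 5 were listed, and 4 of them were higher (Ltb, Cd37, Cxcr5 and Bank1), against 12.6% of all genes. The number was 2 when 5w replicate 1 or 2 or aged replicate 1, 2 or 4 was left out, and 0 in the later set alone. The summed level of the 5 listed genes was 18.4 to 37.1 CPM at 5 weeks, against 40.9 to 122 CPM in aged uteri. Ltb, the lymphotoxin that shapes lymphoid tissue, was 1.86 to 7.64 CPM (median 2.75) in 5-week and 4.05 to 18.8 CPM (median 13.2) in aged uteri (log2 change 1.75 ± 0.33, adjusted p = 0.00119, by set 1.92 and 1.68), and without 5w replicate 3 the log2 change was 1.94. T and NK cell genes rose in 2 of 11 measured members, Ccl5 and Cd2, 18.2% against 12.6% of all genes, with a median log2 change of -0.32. The number higher was 1 without 5w replicate 3 and 0 in the later set alone. Ccl5, a chemokine of activated T cells, was 2.43 to 12.5 CPM (median 3.96) in 5-week and 4.18 to 20.1 CPM (median 13.5) in aged uteri (log2 change 1.19 ± 0.35, adjusted p = 0.02, by set 0.77 and 1.37), and lost the call without aged replicate 1 (adjusted p = 0.0538), after quantile normalization (0.0703) and with no set term (0.0639). Both T and NK calls were lost without that library.

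Genes that present antigen to helper T cells rose together: 8 of 10 measured MHC class II genes were higher, against 12.6% of all genes, and 0 lower, with a median log2 change of 1.66. Their summed level was 241 to 1370 CPM at 5 weeks, against 1606 to 4230 CPM in aged uteri, with no overlap. Cd74, the invariant chain, was 78.9 to 343 CPM (median 132) in 5-week and 416 to 1297 CPM (median 758) in aged uteri (log2 change 2.41 ± 0.38, adjusted p = 0.000211; 3.01 in the earlier and 2.14 in the later set), with all aged libraries above all 5-week libraries. The beta chain H2-Ab1 was 37.7 to 159 CPM (median 56.0) in 5-week and 181 to 491 CPM (median 339) in aged uteri, likewise apart (log2 change 2.21 ± 0.36, adjusted p = 0.000325, by set 2.89 and 1.89). The peptide-loading chains H2-DMa and H2-DMb1 rose by 1.74 and 1.58 on the log2 scale; 10.4% of exon bases of H2-DMa are shared with Brd2.

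Promoter stretches of an alpha and a beta chain gene are shown because class II promoters are known for a shared X and Y box, the Y box holding CTGATTGG. H2-Aa and H2-Eb1 were chosen after their values were seen, since their stretches hold these letters. They lie at chr17:34287824-34287943 on the minus strand and chr17:34305747-34305866 on the plus strand of GRCm38.p6, from RefSeq, 5′ to 3′, with CTGATTGG in capitals.
H2-Aa: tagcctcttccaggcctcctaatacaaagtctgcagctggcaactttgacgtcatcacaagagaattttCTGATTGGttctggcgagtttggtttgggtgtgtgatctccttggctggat
H2-Eb1: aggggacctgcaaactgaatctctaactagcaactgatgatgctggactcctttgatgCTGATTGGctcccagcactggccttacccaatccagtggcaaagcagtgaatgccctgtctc

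CTGATTGG begins 51 bases before the start of H2-Aa and 62 bases before that of H2-Eb1. It holds ATTGG, so each match is also a CCAAT box. Of 6 class II genes with an entry 2 (33.3%) had it in the 300-base window, against 6.32% of all genes and 25.0% (10 of 40) of mitosis genes. H2-Aa was 28.2 to 437 CPM (median 156) in 5-week and 259 to 1238 CPM (median 465) in aged uteri (log2 change 2.14 ± 0.40, adjusted p = 0.00109, by set 3.16 and 1.67), and H2-Eb1 was 30.9 to 334 CPM (median 117) in 5-week and 257 to 1044 CPM (median 407) in aged uteri (log2 change 2.23 ± 0.39, adjusted p = 0.000586, by set 3.15 and 1.81). In both genes the highest 5-week values overlapped the aged ones.

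Of 19 genes of class I antigen presentation 9 were higher, against 12.6% of all genes, and 0 lower, with a median log2 change of 0.54. The number higher was 5 without aged replicate 1 or with columns attached by file, and 1 in the later set alone. H2-K1, a classical class I heavy chain, was 499.5 to 1038 CPM (median 701) in 5-week and 1051 to 2045 CPM (median 1537) in aged uteri, with no overlap (log2 change 1.06 ± 0.24, adjusted p = 0.00359, by set 1.81 and 0.72). H2-Q6, one of a cluster of near copies, was 6.21 to 51.0 CPM (median 34.6) in 5-week and 58.7 to 133 CPM (median 100.3) in aged uteri, also apart (log2 change 1.86 ± 0.38, adjusted p = 0.00205; 3.52 in the earlier and 1.10 in the later set).

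Complement genes were higher in 7 of 16 measured members, against 12.6% of all genes, and lower in 0, with a median log2 change of 0.73. In the later set alone 1 was higher. C4b, the fourth component (chromosome 17, 34728380 to 34743882, GRCm38), was 14.9 to 97.1 CPM (median 39.1) in 5-week and 194 to 724 CPM (median 259.8) in aged uteri. No aged library overlapped the 5-week ones, and the log2 change was 2.92 ± 0.40, adjusted p = 6.5e-05 (4.52 in the earlier and 2.18 in the later set); a near copy of the gene lies beside it. C2, the partner of C4 in the same convertase, was 3.74 to 21.9 CPM (median 9.81) in 5-week and 18.8 to 48.2 CPM (median 32.9) in aged uteri (log2 change 1.52 ± 0.37, adjusted p = 0.00746, by set 2.52 and 1.06), and shares 42.8% of its exon bases with Gm20547.

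Chemokine genes were higher in 7 of 16 measured members (4 without aged replicate 1, 1 in the later set alone), against 12.6% of all genes, and lower in 2, the monocyte attractants Ccl7 and Ccl2. Their summed level was 608 to 1114 CPM at 5 weeks, against 1320 to 1825 CPM in aged uteri, with no overlap. Ccl21a, which lymphatic endothelium makes to draw dendritic cells and T cells (chromosome 4, 42772860 to 42773993, GRCm38), was 0.692 to 266 CPM (median 106) in 5-week and 115 to 549 CPM (median 306) in aged uteri. Values at 5 weeks were 0.692 and 2.64 CPM in the earlier set and 70.3 to 266 CPM in the later set. Aged values were 115 and 183 CPM in the earlier set and 284 to 549 CPM in the later set, so that the ages did not overlap within either set. The log2 change was 2.86 ± 0.57, adjusted p = 0.0019, and 5.88 in the earlier and 1.5 in the later set. The gene has near copies. Cxcl12, the stromal chemokine that holds plasma cells in tissue, was 42.4 to 190.2 CPM (median 71.1) in 5-week and 199 to 328 CPM (median 226) in aged uteri, with no overlap (log2 change 1.52 ± 0.35, adjusted p = 0.00435, by set 2.31 and 1.14).

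Few interferon-stimulated genes passed. Of 30 members 4 were lower (Isg15, Mx1, Cmpk2 and Ddx58), against 9.30% of all genes, and 1 was higher (Ifi27), with a median log2 change of -0.66. The number lower was 7 without 5w replicate 3 or 5w replicate 5 and 10 without 8w replicate 4. Isg15, a ubiquitin-like modifier, was 43.0 to 167 CPM (median 91.0) in 5-week and 11.9 to 44.9 CPM (median 26.3) in aged uteri, with 5 of 6 aged libraries below every 5-week library (log2 change -1.64 ± 0.47, adjusted p = 0.0176, by set -2.34 and -1.33); attached by file it did not pass (adjusted p = 0.0585). The antiviral GTPase Mx1 was 4.61 to 39.1 CPM (median 29.9) in 5-week and 3.03 to 13.2 CPM (median 8.86) in aged uteri (log2 change -1.49 ± 0.42, adjusted p = 0.0172, by set -2.29 and -1.14), and its lowest 5-week value was that of 5w replicate 3, without which the log2 change was -1.82. Ifi27, an interferon-inducible gene that moved against the others, was 58.7 to 136 CPM (median 90.5) in 5-week and 150.4 to 268 CPM (median 201) in aged uteri, with no overlap and a log2 change of 1.24 ± 0.15, adjusted p = 1.77e-05, by set 1.44 and 1.16.

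Macrophage and dendritic cell genes were higher in 6 of 24 measured members (Mpeg1, Csf1r, C1qa, Cd14, Itgax and Flt3), 25.0% against 12.6% of all genes, and lower in 0, with a median log2 change of 0.80. In the later set alone 0 passed. The number higher was 3 with columns attached by file, 12 without 5w replicate 3, 14 without aged replicate 7, and 3 without 5w replicate 2 or aged replicate 1. Csf1r, the receptor that keeps macrophages alive, was 35 to 92.8 CPM (median 62.0) in 5-week and 81.0 to 213 CPM (median 126) in aged uteri (log2 change 1.15 ± 0.32, adjusted p = 0.0149, by set 1.43 and 1.00), and shares 15.1% of its exon bases with Hmgxb3. Mpeg1, the macrophage pore protein, was 32.8 to 105 CPM (median 37.4) in 5-week and 58.6 to 174 CPM (median 125) in aged uteri (log2 change 1.33 ± 0.35, adjusted p = 0.0119, by set 1.74 and 1.12); the highest 5-week value, in 5w replicate 3, lay among the aged ones, and without it the log2 change was 1.52. Of 14 neutrophil genes 3 were listed and 1, Cxcr4, was higher. Of 16 eosinophil and mast cell genes 3 were listed and 2 were higher, Kit and Alox15. Kit, the receptor of mast cells, pigment cells and pacemaker cells, was 1.40 to 9.69 CPM (median 5.49) in 5-week and 13.1 to 47.7 CPM (median 23.7) in aged uteri, with no overlap (log2 change 2.10 ± 0.36, adjusted p = 0.000488, by set 2.05 and 2.12). Red blood cell genes passed in 0 of 4 members (median log2 change 0.95, and 3 called higher without 5w replicate 3).

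Lymphatic endothelium markers rose in 7 of 12 measured members (Ccl21a, Reln, Flt4, Mmrn1, Itga9, Pdpn and Nrp2), against 12.6% of all genes, and fell in 0, with a median log2 change of 1.02. The summed level was 284 to 649 CPM at 5 weeks, against 681 to 1104 CPM in aged uteri, with no overlap. Reln, a secreted glycoprotein of lymphatic endothelium, was 1.80 to 8.13 CPM (median 3.73) in 5-week and 9.61 to 69.5 CPM (median 23.1) in aged uteri (log2 change 2.34 ± 0.38, adjusted p = 0.000303, by set 3.63 and 1.74), with no overlap. Itga9, the integrin of lymphatic valves, and Pdpn, podoplanin, rose by 1.52 and 1.07 on the log2 scale, both with no overlap. In blood vessel endothelium 3 of 21 measured markers were higher (Cldn5, Vwf and Sox17) and 2 lower (Cd34 and Ramp2), 14.3% and 9.52%, both near the shares of all genes (12.6% and 9.30%). Cldn5, the endothelial tight-junction protein, was 4.64 to 33.0 CPM (median 14.1) in 5-week and 25.1 to 69.6 CPM (median 51.4) in aged uteri (log2 change 1.80 ± 0.32, adjusted p = 0.000739, by set 3.23 and 1.15).

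Of 12 measured fibrillar collagens 5 fell (Col3a1, Col5a1, Col11a1, Col1a1 and Col1a2), against 9.30% of all genes, and 0 rose, with a median log2 change of -0.84. The number was 2 without 5w replicate 1 or with columns attached by file, 3 without aged replicate 2 and 0 in the later set alone. Their summed level was 3198 to 18388 CPM at 5 weeks, against 1743 to 6131 CPM in aged uteri, so the groups overlapped. Col3a1, the collagen of reticular fibres (chromosome 1, 45311538 to 45349706, GRCm38), was 1779.9 to 4853 CPM (median 2963) in 5-week and 508 to 2505 CPM (median 1178) in aged uteri. In 4 of 6 aged libraries it was below every 5-week library, and the log2 change was -1.33 ± 0.30, adjusted p = 0.00381 (-1.40 in the earlier and -1.31 in the later set). Of 15 basement membrane and beaded collagens 5 fell (Col7a1, Col6a6, Col4a3, Col4a1 and Col4a2), 33.3%, and 0 rose. Col7a1, which anchors epithelium to stroma, was 19.8 to 47.5 CPM (median 37.5) in 5-week and 4.85 to 17.8 CPM (median 12.8) in aged uteri, with no overlap (log2 change -1.51 ± 0.32, adjusted p = 0.00253, by set -1.58 and -1.49). Col4a1, the basement membrane chain, was 185 to 769 CPM (median 391) in 5-week and 123 to 467 CPM (median 166) in aged uteri (log2 change -0.93 ± 0.26, adjusted p = 0.0146, by set -1.06 and -0.87), and its highest aged value stood apart from the other 5.

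Enzymes that shape collagen fell in 5 of 28 measured members (Adamts14, Loxl2, Plod2, Fkbp14 and Adamts2), 17.9% against 9.30% of all genes, and rose in 0. The number was 3 without 5w replicate 1, 5w replicate 4 or aged replicates 4, 6 or 7. Loxl2, a crosslinking lysyl oxidase, was 33.7 to 187 CPM (median 93.4) in 5-week and 19.5 to 35.3 CPM (median 30.2) in aged uteri (log2 change -1.51 ± 0.29, adjusted p = 0.00131, by set -2.13 and -1.23). Adamts14, which trims procollagen ends, was 2.98 to 18.8 CPM (median 15.2) in 5-week and 1.94 to 5.04 CPM (median 3.17) in aged uteri (log2 change -1.54 ± 0.35, adjusted p = 0.0047, by set -1.90 and -1.39).

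Elastic fibre and matricellular genes moved both ways, with 7 higher (Tgfbi, Tnxb, Thbs2, Ccn2, Sparcl1, Efemp1 and Thbs1) and 6 lower (Fbn2, Eln, Vcan, Fbn1, Sparc and Mfap5) of 35 measured, 20% and 17.1% against 12.6% and 9.30% of all genes. The number higher was 4 without 5w replicates 2, 6 or 7 or aged replicate 1, and 3 without aged replicate 4. Fbn2, the fibrillin of growing tissue, was 12.6 to 99.3 CPM (median 22.9) in 5-week and 1.04 to 13.5 CPM (median 7.47) in aged uteri (log2 change -2.25 ± 0.45, adjusted p = 0.00187, by set -3.37 and -1.74). Tgfbi, an extracellular protein named for its induction by TGF-beta, was 17.8 to 145 CPM (median 40.9) in 5-week and 91.8 to 895 CPM (median 211) in aged uteri. Its highest 5-week value was that of 5w replicate 3, and the log2 change was 2.58 ± 0.48, adjusted p = 0.00107, by set 3.00 and 2.38, or 2.88 without that library. Tnxb, a tenascin that organises collagen fibres, was 18.8 to 92.8 CPM (median 30.5) in 5-week and 70.7 to 243 CPM (median 111) in aged uteri (log2 change 1.76 ± 0.37, adjusted p = 0.00253, by set 2.46 and 1.41).

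Metalloproteinases and their inhibitors rose in 5 of 16 measured members (Mmp11, Mmp15, Mmp7, Timp3 and Timp2) and fell in 2 (Timp1 and Adamts9), 31.2% and 12.5% against 12.6% and 9.30% of all genes. The number higher was 2 without aged replicate 1 or 2 and 3 without 5w replicate 2 or aged replicate 4. Mmp11, the stromal protease stromelysin 3, was 8.78 to 107 CPM (median 14.0) in 5-week and 15.1 to 633 CPM (median 183) in aged uteri, with 3 aged libraries above every 5-week library (log2 change 2.73 ± 0.74, adjusted p = 0.0128, by set 3.34 and 2.44). Without 5w replicate 3, which had the highest 5-week value, it was 3.13. Timp1, the inducible inhibitor, was 20 to 64.1 CPM (median 28.7) in 5-week and 3.35 to 32.2 CPM (median 10.5) in aged uteri (log2 change -1.51 ± 0.32, adjusted p = 0.00279, by set -0.90 and -1.78).

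Genes of cholesterol synthesis fell in 12 of 22 measured members, against 9.30% of all genes, and rose in 0, with a median log2 change of -0.94, or -2.09 in the earlier and -0.41 in the later set. The number was 7 without 5w replicate 2, aged replicate 1 or aged replicate 2, and 1 in the later set alone. Msmo1, a sterol oxidase late in the pathway (chromosome 8, 64718139 to 64733792, GRCm38), was 22.7 to 193 CPM (median 67.7) in 5-week and 11.2 to 35.4 CPM (median 21) in aged uteri, with 3 of 6 aged libraries below every 5-week library. Both 5-week libraries of the earlier set, at 177 and 193 CPM, stood above the other 5, and the log2 change was -1.90 ± 0.39, adjusted p = 0.0022 (-3.40 in the earlier and -1.22 in the later set). Cyp51, which demethylates lanosterol, fell by 1.72 on the log2 scale. No gene of fatty acid synthesis passed, of 16.

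Oxidative phosphorylation, glycolysis and the proteasome were lower in part. Of 58 nuclear genes of oxidative phosphorylation, 17 fell (29.3% against 9.30% of all genes) and 0 rose, with a median log2 change of -0.36. The number was 10 or 11 without 5w replicate 2 or aged replicates 1, 2 or 7, 11 after quantile normalization, 8 with columns attached by file and 2 in the later set alone. Atp5g3, a ring subunit of ATP synthase, was 312 to 479.8 CPM (median 331) in 5-week and 195 to 242 CPM (median 231) in aged uteri, and Cox5a, of cytochrome oxidase, was 104 to 204 CPM (median 145) in 5-week and 58.0 to 96.7 CPM (median 69.7) in aged uteri. Neither overlapped between the ages, with log2 changes of -0.74 ± 0.13, adjusted p = 0.00055, by set -0.98 and -0.62 and -1.04 ± 0.17, adjusted p = 0.000274, by set -1.47 and -0.83; Cox5a shares 12.8% of its exon bases with Gm26631. Of 9 measured genes of the mitochondrial genome 2 rose, mt-Nd6 and mt-Nd5, 22.2% against 12.6% of all genes. The number was 1 with columns attached by file and 0 in the later set alone. For mt-Nd6 the level was 239 to 1018 CPM (median 544) in 5-week and 684 to 1288 CPM (median 979) in aged uteri (log2 change 0.85 ± 0.19, adjusted p = 0.00399, by set 1.22 and 0.67).

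Glycolysis genes fell in 7 of 20 members (35.0% against 9.30% of all genes) and rose in 2, Pfkfb3 and Eno2. The median log2 change was -0.203, with -0.997 in the earlier set and 0.085 in the later set, so its sign differed between the sets. The number lower was 3 with columns attached by file, 0 in the later set alone and 4 without 5w replicates 2, 6 or 7 or aged replicates 2 or 7. Ldha, lactate dehydrogenase, was 582 to 1351 CPM (median 1021) in 5-week and 415 to 527 CPM (median 463) in aged uteri, with no overlap (log2 change -1.07 ± 0.21, adjusted p = 0.00149, by set -1.58 and -0.84). Of 31 proteasome genes 17 fell (54.8%) and 0 rose, with a median log2 change of -0.53. The number was 7 to 11 without 5w replicates 1, 2 or 7 or aged replicates 1, 2 or 7, 10 after quantile normalization, 2 with columns attached by file and 0 in the later set alone. Psmd14, the deubiquitinase of the cap, and Psma6, of the core, fell by 0.81 and 0.63 on the log2 scale, both with no overlap. Endoplasmic reticulum chaperone and stress genes fell in 11 of 30 members (36.7%, with 0 in the later set alone) and rose in 1, Ddit3. The number higher was 0 after quantile normalization, after median centring and with columns attached by file. It was also 0 without aged replicate 1, among other single libraries. Manf, a secreted factor of the folding stress response, was 179 to 365 CPM (median 228) in 5-week and 74.7 to 193 CPM (median 132) in aged uteri (log2 change -0.92 ± 0.23, adjusted p = 0.00902, by set -1.31 and -0.74). Of 52 measured cytosolic ribosomal proteins 0 passed (median log2 change 0.01), and their summed level ran from 15039 to 19369 CPM in the earlier set and from 73302 to 139220 CPM in the later set.

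**Figure D3:**
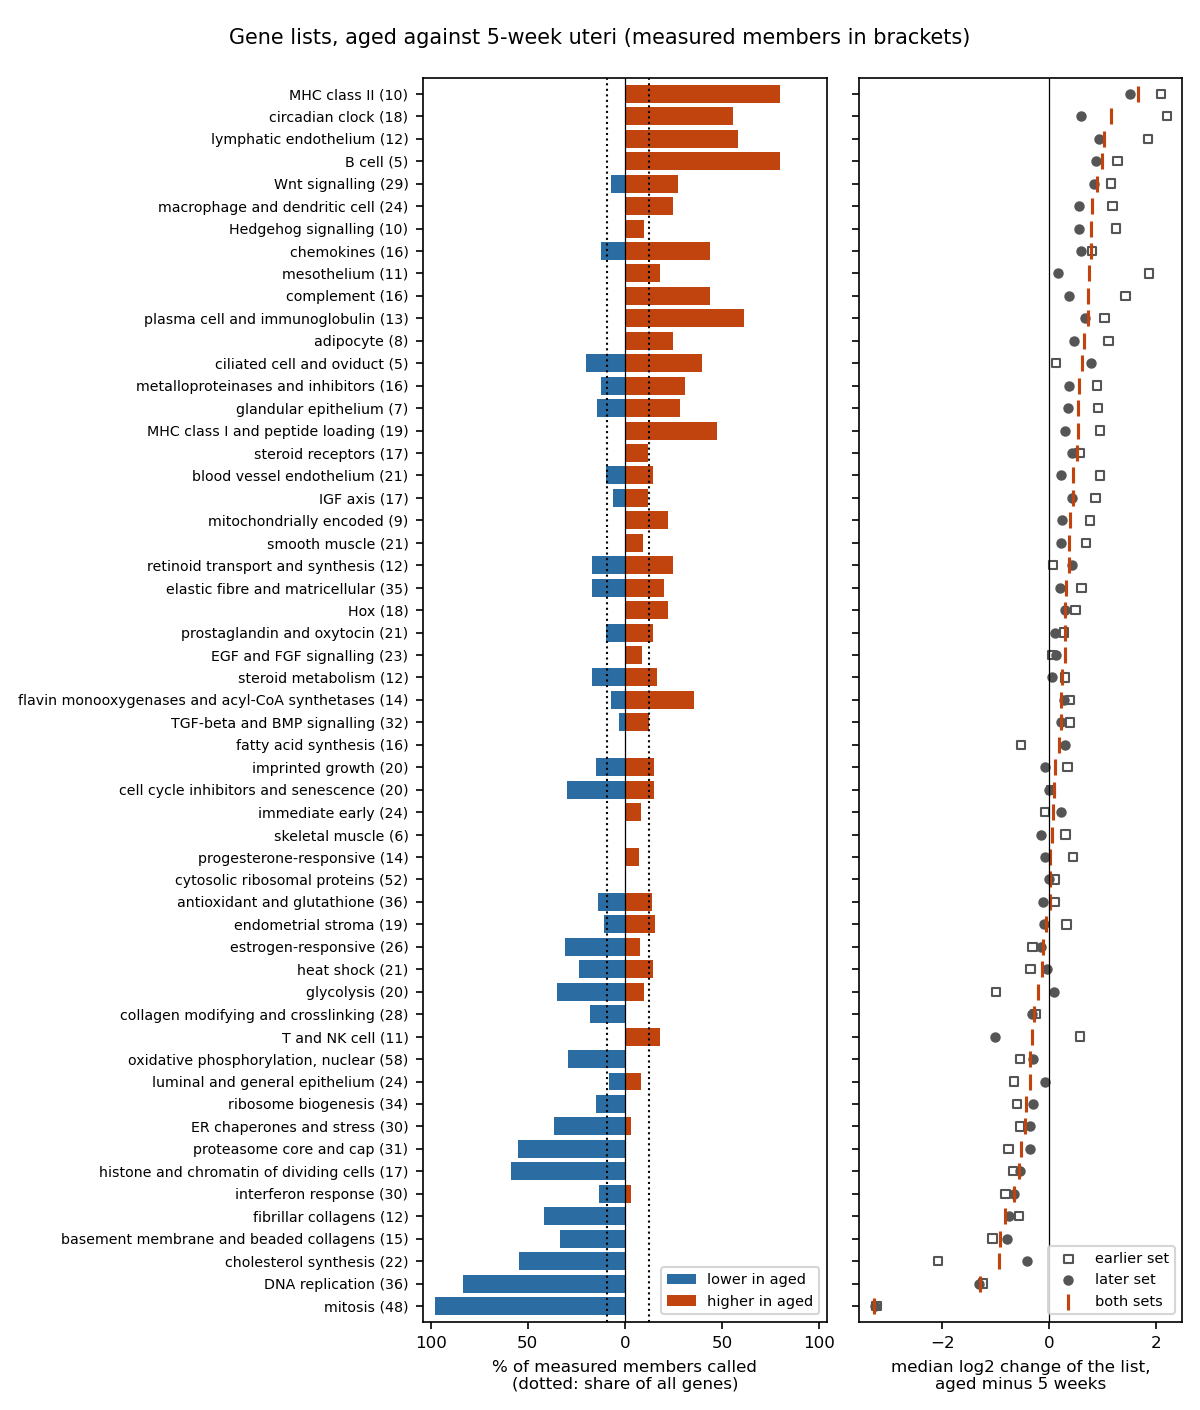
For each gene list with at least 5 measured members, the percentage of measured members called higher or lower in aged uteri, with dotted lines at the percentages of all genes (12.6 higher, 9.30 lower), and the median log2 change within each set. Mitosis and DNA replication stand furthest on the lower side, and B cell, MHC class II and antibody genes furthest on the higher side.

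Slc27a2, which activates very long fatty acids, was 1.42 to 16.1 CPM (median 6.16) in 5-week and 28.2 to 172 CPM (median 54.6) in aged uteri, with no overlap (log2 change 2.94 ± 0.53, adjusted p = 0.000837, by set 3.52 and 2.66); it shares 11.2% of its exon bases with Gm26697. Fmo2, a flavin monooxygenase, was 5.81 to 62.0 CPM (median 46.1) in 5-week and 77.0 to 902 CPM (median 282) in aged uteri, also apart, with a log2 change of 2.81 ± 0.58, adjusted p = 0.00224 (5.35 in the earlier and 1.63 in the later set). Of 14 measured flavin monooxygenases and acyl-CoA synthetases 5 rose (Slc27a2, Fmo2, Slc27a3, Slc27a1 and Fmo5) and 1, Acsl3, fell, 35.7% and 7.14% against 12.6% and 9.30% of all genes. Acsl3, which loads fatty acids for lipid droplets, was 36.8 to 169.6 CPM (median 59.4) in 5-week and 22.3 to 36.9 CPM (median 26.8) in aged uteri (log2 change -1.48 ± 0.31, adjusted p = 0.00224, by set -2.21 and -1.13).

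In the antioxidant and glutathione list 5 of 36 measured members rose (Gstm1, Gstt1, Gsta3, Gsto1 and Prdx6) and 5 fell (Nqo1, Gpx7, Txnrd1, Txn1 and Hmox1), 13.9% each way, near the 12.6% and 9.30% of all genes. Without 5w replicates 1, 2 or 7 or aged replicate 2 these were 2 and 3, and without aged replicate 1 or 4 the number higher was 3. Gstm1, a glutathione transferase, was 36.2 to 528 CPM (median 196) in 5-week and 192 to 785 CPM (median 589) in aged uteri (log2 change 1.74 ± 0.27, adjusted p = 0.000215, by set 2.46 and 1.41). Gstm7, its neighbour, was 2.84 to 14.3 CPM in 6 of the 5-week libraries and 335 CPM in 5w replicate 3. In aged uteri it was 12.5 and 15.2 CPM in replicates 1 and 5 and 186 to 419 CPM in the other 4 (log2 change 2.97 ± 0.94, adjusted p = 0.0285, by set 3.51 and 2.73, or 3.63 without 5w replicate 3). Gstm7 lost the call without any of 5w replicates 1, 2, 6 or 7 or aged replicates 2, 4 or 6, with adjusted p up to 0.0797. Gstm genes are near copies, and reads may be split uncertainly between them.

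Clock genes rose in 10 of 18 measured members (among them Nr1d1, Dbp, Bhlhe41, Hlf, Tef, Per3, Rora, Nr1d2 and Cry2), against 12.6% of all genes, and fell in 0, with a median log2 change of 1.15, or 2.21 in the earlier and 0.60 in the later set. The number higher was 3 in the later set alone. The lowest log2 change in the list was -0.979, and 1 member fell without 5w replicate 3 or aged replicate 5 or with columns attached by file. The sources used here give no hour of dissection, and its part in these values was not tested. Nr1d1, the repressor REV-ERB alpha (chromosome 11, 98767932 to 98775333, GRCm38), was 1.36 to 24.4 CPM (median 7.33) in 5-week and 17.7 to 176 CPM (median 54.5) in aged uteri. The aged libraries of the earlier set, at 175 and 176 CPM, were the highest, and aged replicates 4 and 5, at 17.9 and 17.7 CPM, lay within the 5-week range. The log2 change was 2.71 ± 0.45, adjusted p = 0.000373, by set 3.46 and 2.36, and attached by file it did not pass (adjusted p = 0.0515). Dbp, a transcription factor of clock output, was 3.49 to 36.1 CPM (median 17.8) in 5-week and 33.9 to 183 CPM (median 56.1) in aged uteri (log2 change 2.20 ± 0.49, adjusted p = 0.00358; 4.78 in the earlier and 1.02 in the later set), and shares 18.0% of its exon bases with Sphk2. Bhlhe41, a repressor of the clock, rose by 1.92 on the log2 scale and shares 19.1% of its exon bases with Gm43909.

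Foxc1, a forkhead factor of mesenchyme and vessels (chromosome 13, 31806633 to 31812476, GRCm38), had one of the clearest separations. It was 0.942 to 2.49 CPM (median 1.79) in 5-week and 9.23 to 46.6 CPM (median 25.7) in aged uteri, and every aged library had more than 3 times the highest 5-week value (log2 change 3.01 ± 0.33, adjusted p = 1.27e-05; 3.64 in the earlier and 2.76 in the later set). Foxa2, the forkhead factor of uterine glands, was 1.12 to 4.61 CPM (median 1.62) in 5-week and 1.96 to 33.3 CPM (median 8.23) in aged uteri (log2 change 1.72 ± 0.40, adjusted p = 0.00491, by set 0.92 and 2.11). Of 7 measured gland markers 2 rose (Pigr and Foxa2) and 1, Lif, fell. Of 18 measured Hox genes 4 rose (Hoxc6, Hoxa7, Hoxb3 and Hoxb5), 22.2% against 12.6% of all genes, and 0 fell, with 2 rising after quantile normalization, and Hoxc6 was 1.31 to 11.2 CPM (median 4.89) in 5-week and 10.3 to 32.3 CPM (median 17.4) in aged uteri (log2 change 1.66 ± 0.40, adjusted p = 0.00619, by set 2.59 and 1.22).

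Wnt pathway genes rose in 8 of 29 measured members (Dkk3, Rspo1, Wnt7b, Fzd7, Fzd6, Sfrp1, Frzb and Lgr4) and fell in 2, the ligands Wnt16 and Wnt5a, 27.6% and 6.90% against 12.6% and 9.30% of all genes, with a median log2 change of 0.89. The number higher was 14 without 5w replicate 3 and 15 without aged replicate 5, and 4 or 5 without 5w replicates 1, 6 or 7 or aged replicate 2. Wnt16 was 10.6 to 32.1 CPM (median 17.0) in 5-week and 1.82 to 12.7 CPM (median 2.81) in aged uteri (log2 change -2.0 ± 0.34, adjusted p = 0.000548; -0.94 in the earlier and -2.49 in the later set). Rspo1, a secreted amplifier of Wnt signals, was 12.8 to 43.9 CPM (median 19.5) in 5-week and 39.5 to 204 CPM (median 75.7) in aged uteri (log2 change 1.63 ± 0.32, adjusted p = 0.00156, by set 2.33 and 1.30). Dkk3, a secreted relative of Wnt inhibitors, was 8.08 to 89.9 CPM (median 44.6) in 5-week and 88.1 to 201 CPM (median 115) in aged uteri (log2 change 1.85 ± 0.34, adjusted p = 0.00101, by set 3.18 and 1.23).

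In TGF-beta and BMP signalling 4 of 32 measured genes rose (the receptor Bmpr1b, the ligands Bmp4 and Bmp6, and the antagonist Chrd) and 1, Fstl1, fell, shares no higher than those of all genes (12.6% and 9.30%). Bmp4 was 4.92 to 21.5 CPM (median 10.4) in 5-week and 20.2 to 42.0 CPM (median 30.7) in aged uteri (log2 change 1.45 ± 0.30, adjusted p = 0.00214, by set 1.43 and 1.43). In the IGF axis 2 of 17 rose, the binding proteins Igfbp3 and Igfbp6, and 1, Igf1, fell, again no higher than those shares. Igfbp3 was 9.55 to 268 CPM (median 24.0) in 5-week and 58.7 to 247 CPM (median 155) in aged uteri (log2 change 2.11 ± 0.57, adjusted p = 0.0134, by set 3.00 and 1.67). Its highest 5-week value was above every aged one, and without 5w replicate 3 the log2 change was 2.54. Of 20 measured imprinted genes 3 rose (Cdkn1c, Airn and Sgce) and 3 fell (Mest, Meg3 and Grb10), 15.0% each way. Grb10, an imprinted brake on insulin and IGF receptors, was 148 to 296 CPM (median 174) in 5-week and 77.8 to 163 CPM (median 86.8) in aged uteri (log2 change -0.85 ± 0.21, adjusted p = 0.00869, by set -0.41 and -1.04). Smo, the Hedgehog transducer, was the 1 of 10 Hedgehog genes to pass, upward.

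Retinoid genes rose in 3 of 12 measured members (Dhrs3, Rdh10 and Rarres2) and fell in 2 (Aldh1a2 and Rdh11), 25.0% and 16.7% against 12.6% and 9.30% of all genes. Rdh10, which oxidises retinol, was 32.2 to 88.7 CPM (median 53.0) in 5-week and 78.7 to 427 CPM (median 187) in aged uteri (log2 change 1.78 ± 0.21, adjusted p = 1.64e-05, by set 2.25 and 1.57), and Dhrs3, which reduces retinal again, was 19.7 to 106 CPM (median 41.3) in 5-week and 92.0 to 313 CPM (median 121) in aged uteri (log2 change 2.02 ± 0.34, adjusted p = 0.000446, by set 2.39 and 1.83).

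Few markers of the tissue layers passed, and some markers of neighbouring organs were higher. Smooth muscle passed in 2 of 21 measured members, Lmod1 and Smtn, both higher, with a summed level of 3972 to 22461 CPM at 5 weeks, against 4719 to 36483 CPM in aged uteri, and 0 passed with columns attached by file. Of 24 epithelial markers 2 rose (Prom1 and Cldn4) and 2 fell (Cldn7 and Ovol1), with 5 rising without 5w replicate 3, and of 19 measured stromal markers 3 rose (Mme, Rxfp1 and Vcam1) and 2 fell (Hsd11b2 and Wnt5a). These shares were below or near those of all genes (12.6% and 9.30%). Prom1, a membrane protein of the apical surface, was 67.9 to 395 CPM (median 144) in 5-week and 372 to 2052 CPM (median 659.6) in aged uteri (log2 change 2.03 ± 0.41, adjusted p = 0.00188, by set 1.59 and 2.21). Mesothelium markers rose in 2 of 11 measured members, Rspo1 and Cdh3.

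Of 16 ovary markers 3 were listed, with a summed level of 6.63 to 33.2 CPM at 5 weeks, against 21.3 to 63.2 CPM in aged uteri. Of these 3, 1 rose, Star (33.3% against 12.6% of all genes), and 0 did in the later set alone. Star, which carries cholesterol into mitochondria for steroid synthesis, was 2.10 to 5.49 CPM (median 3.61) in 5-week and 8.28 to 51.4 CPM (median 12.3) in aged uteri, with no overlap (log2 change 1.92 ± 0.36, adjusted p = 0.00122, by set 3.52 and 1.18). Of 13 ciliated cell and oviduct markers 5 were listed, at a summed 447 to 609 CPM at 5 weeks, against 305 to 1483 CPM in aged uteri. Of these 5, 2 rose (Ovgp1 and Cfap126) and 1, Tubb4b, fell, 40% and 20% against 12.6% and 9.30% of all genes. The number higher was 0 without aged replicate 1 or 7 and in the later set alone. It was 1 without 5w replicates 1, 2, 6 or 7 or aged replicates 4 or 6, and with columns attached by file. Ovgp1, the oviduct glycoprotein, was 1.32 to 88.5 CPM (median 18.8) in 5-week and 9.57 to 1290.2 CPM (median 435) in aged uteri, with 4 aged libraries above every 5-week library (log2 change 3.40 ± 1.11, adjusted p = 0.034, by set 5.33 and 2.53). It lost the call without 5w replicates 1, 2, 6 or 7 or aged replicates 1, 4 or 7, with adjusted p up to 0.0979. Ovgp1 also lost it in a fit of the aged and 5-week libraries alone (adjusted p = 0.0514). The gene shares 28.7% of its exon bases with Gm42890. Rec8, the meiotic cohesin, was 1.71 to 45.9 CPM (median 2.53) in 5-week and 6.03 to 83.7 CPM (median 47.4) in aged uteri (log2 change 2.74 ± 0.66, adjusted p = 0.00661, by set 3.47 and 2.38), with 5w replicate 3 highest at 5 weeks, and 3.21 without it. The part of tissue from neighbouring organs in these values was not tested. Nerve markers passed in 1 of 4 measured members (Mbp, higher) and skeletal muscle markers in 0 of 6.

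The change between the ages was larger in the earlier set for 1262 of the 1610 genes that rose (78.4%) and 885 of the 1189 that fell (74.4%), and for 8815 of all 12791 genes (68.9%). A test of the difference between the sets called 0 genes in limma (lowest adjusted p = 0.101), with 1074 at an unadjusted p under 0.05. Fitted alone, the earlier set called 2584 genes and the later set 513. Of these 366 were in both with the same sign, 71.3% of the later and 14.2% of the earlier calls, and 0 had opposite signs. Such counts depend on the spread between replicates as well as on the change with age. A chi-square per gene, lower for pairs of libraries more alike, was 30.9 for 5w replicates 1 and 2. Later 5-week pairs had 84.4 to 473. Aged replicates 1 and 2 had 96.4, within the range of later aged pairs, 71.3 to 345. The part of this spread in the counts, and that of depth, was not tested. The smallest p-values for the difference between the sets were those of Acot1, Ctsf and Dbp. Acot1, an acyl-CoA thioesterase, was 1.24 to 155 CPM (median 97.2) in 5-week and 20.2 to 97.8 CPM (median 58.3) in aged uteri, with log2 changes of 3.29 in the earlier and -0.48 in the later set, and Ctsf, a lysosomal protease, was 5.36 to 57.9 CPM (median 40.1) in 5-week and 50.4 to 82.4 CPM (median 70.9) in aged uteri, with 2.96 in the earlier and 0.77 in the later set (both sets together, 1.46 ± 0.29, adjusted p = 0.00182).

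**Figure D4:**
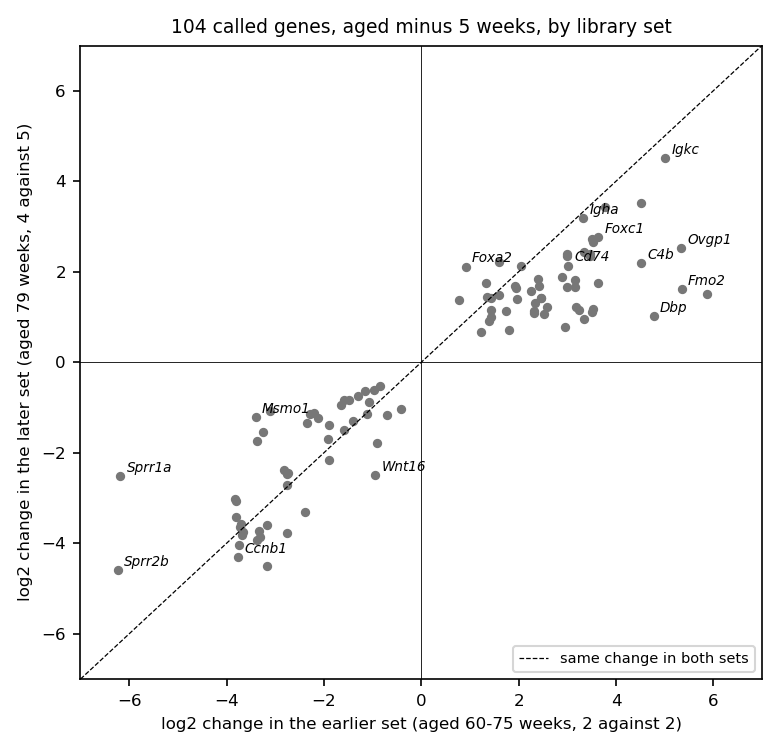
Log2 change of aged against 5-week uteri in the earlier set (2 against 2 libraries) across and in the later set (4 against 5) up, one point for each of 104 genes described above that passed the test. All 104 points keep the same sign in both sets, and 81 of them lie further from 0 in the earlier set. The same sign was a condition for the genes named for the largest changes. All 104 also passed in the fit of both sets together, so their shared sign is no separate test.

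Uteri of 8 weeks were compared with the same aged libraries, so both comparisons share those 6. Between aged and 8-week uteri 2179 genes passed (17.0%), and between 8 and 5 weeks 0 did (135 at an unadjusted p under 0.05, lowest adjusted p = 0.99992, in limma). Chance gives about 1 in 20 of all genes at that unadjusted threshold, which is more than 135. The 135 are thus no sign of a difference, and the 0 does not show that the 2 ages are alike. Of the genes called against 5 weeks and described here, Sprr1a had a log2 change of -1.87 (adjusted p = 0.111) against 8 weeks, Ccl21a of 1.40 (0.0989), and Isg15 of -0.71 (0.312). The class I genes H2-K1 and H2-Q6 had 0.49 (0.161) and 0.73 (0.193), and Ovgp1 had 1.67 (0.316), so that none of these passed against 8 weeks. Igkc, at 4.67 against 8 and 4.66 against 5 weeks, and Ube2c, at -3.48 and -3.95, passed in both. Differences between these 2 comparisons were not called for any gene, since they equal the comparison of 8 with 5 weeks.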

How the data were processed

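RNA of whole uteri was sequenced from NEBNext Ultra libraries, which keep no strand, as 60 bp single or 150 bp paired reads, per the labels' protocols. STAR, featureCounts, fastp, edgeR and the build GRCm38 appear in the submitters' processing notes, with no versions or roles. The authors deposited CPM, scaled to 1e+06 over 12791 listed genes in each column. Every value was a whole multiple of 1 read within 1e-06 of a read, which gave the total reads.

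Of 21 files, 20 held numbers. Columns were taken as the sample their header names; the header named another sample than the one attached in 15 files and its own in 5. Aged replicate 3 was not analysed here, and some genes that met the naming rule are not reported here. GENCODE for mouse on GRCm38 held 12767 of the gene identifiers and gave coordinates and shared exon bases.

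The log2(CPM + 1) values of all 20 libraries were fitted in limma 3.58.1 (R 4.3.3; robust, with trend) by group and set, with Benjamini-Hochberg adjustment over 12791 genes. Genes named are first those with the largest changes among genes that passed, with a mean of at least 5 CPM over the 13 libraries compared. These also had the same sign in both sets, and predicted loci were left out. Added to them are leading members of gene lists, the 3 with the smallest p for a difference between sets, and fixed marker genes. Some other genes with values, such as H2-Aa, were chosen after their values were seen. Members and 60 lists were chosen with earlier results of these data known. The fit was tested on simulated data. Deviations of same-numbered aged and 5-week libraries from their group had r of -0.266 to 0.183 in the later set. In the earlier set, 2 libraries per group cannot test pairing. Labels do not say that animals of the same number belong together, so the numbers were not taken as pairs.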

Additional observations from a re-analysis of the deposited data

Results flagged for a closer look

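For 108 genes the 5-week and the aged group were each searched for a library standing apart from the rest of its group, and 14 of 216 did, where chance gives about 1 in 20. In 8 of these the library was 5w replicate 3. It was far above the other 5-week libraries in Gstm7 (334.8 CPM against 2.84 to 14.3), Rec8 (45.86 against 1.71 to 4.25), Mmp11 (107.2 against 8.78 to 19.5), Tgfbi (144.7 against 17.8 to 42.7), Mpeg1 (105 against 32.8 to 47.6) and Ltb (7.644 against 1.86 to 2.99). It was far below them in Sprr2b (6.073 against 65.8 to 174) and Mx1 (4.607 against 16.5 to 39.1). In each of these 8 genes its value lay on the side of the aged libraries.

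At 5 weeks, Pclaf was lowest in 5w replicate 5 (38.89 CPM against 87.9 to 142) and Fmo2 in 5w replicate 1 (5.814 against 30.3 to 62.0). In aged uteri, aged replicate 7 was lowest in Cdkn1a (28.58 CPM against 35.1 to 38.0) and Loxl2 (19.47 against 29.7 to 35.3). Aged replicate 2 was lowest in Ctsf (50.4 against 69.1 to 82.4), and aged replicate 1 highest in Col4a1 (466.7 against 122.5 to 199.7).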

How the results depend on the processing

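Over 33 alternatives, 3416 of 3563 values of the 108 genes kept their direction and their side of the threshold, 131 lost the call, 1 gained it and 15 changed sign. The count of 2799 genes was 1965 to 3284 when single libraries were left out, 1366 with no set term, 513 in the later set alone and 637 there without 5w replicate 3. It was 1974 with columns attached by file and 2223 in a fit of the aged and 5-week libraries alone. With the replicate number as a block it was 2398, and of the genes described only Ovgp1 lost its call (adjusted p = 0.0544). The library 5w replicate 3 has no aged partner. Deviations were taken within each group and set, so with 2 libraries per group those of replicates 1 and 2 mirror each other. Their r, 0.269 for both, is thus 1 observation and cannot test pairing. Aged replicates 4 to 7 each correlated best with a 5-week library of another number. The share of calls that were higher was 57.5%, but 49.5% after quantile normalization (1462 higher, 1492 lower) and 48.2% after median centring (1521 and 1634). The difference between sets called 0 genes, but 1 at a pseudocount of 4, 4 after quantile normalization, 1 after median centring and 0 to 4 when single libraries were left out. In all these settings 0 genes differed between 8 and 5 weeks.

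Signs changed in 3 genes that had not passed. Cdkn1a was -0.31 in the earlier set alone. Acot1 was -0.48 in the later set alone and -0.70 there without 5w replicate 3. Pgr was 0.02312 after quantile normalization, 0.06003 with the replicate block, 0.0337 in the earlier set alone, 0.03866 attached by file, 0.06348 in the later set without 5w replicate 3, and -0.33 to 0.18 when single libraries were left out; the cause was not tested. In 49 of 60 lists a count of calls in one direction moved by over 1.5 times when 1 library was left out, mostly small counts. Count-based tools were not run on reads recomputed from CPM. Earlier libraries were shallower, and with 2 against 2 of them their values rest on few samples.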
